A study of Mus musculus with 8 samples.

Results

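Itga2, Itga4, Itga5, Itga6, Itgal, Itgb1, Itgb2 and Itgb7 encode subunits of the integrins that blood cells use to lodge in and leave fetal liver, bone marrow and lymphoid tissue. They were chosen by name, with earlier results of these data known. All 8 had 1 row each among the 14268 rows of the authors' deposited comparison. RNA came from fetal livers of mouse embryos at E14.5, bred from a Flt3-Cre strain and the mTmG reporter strain. In mTmG cells a membrane-bound red protein, Tomato, is replaced for good by GFP once Cre has acted, and here the Flt3 driver supplies Cre, so GFP+ cells have a history of Flt3-Cre activity and Tomato+ cells have not switched. The sample titles give both fractions as sorted without lineage markers and positive for Kit and Sca1, and name CD150 without a sign. Each fraction gave 4 libraries. The labels do not say whether libraries came from separate embryos or pools, so the spread behind the authors' p-values may be technical. GFP records Cre activity at any earlier time and does not report Flt3 at the time of the sort.

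An integrin is a pair of membrane proteins, 1 alpha and 1 beta subunit, that binds its ligand outside the cell and the actin cytoskeleton inside it. Itga4 pairs with Itgb1 (VLA-4, a receptor for VCAM-1 and fibronectin) or with Itgb7 (LPAM-1, a receptor for MAdCAM-1 in the gut). Itga5 with Itgb1 (VLA-5) binds fibronectin, Itga6 with Itgb1 (VLA-6) binds laminin and Itga2 with Itgb1 (VLA-2) binds collagen. Itgal with Itgb2 forms LFA-1, the leukocyte receptor for ICAMs. Hematopoietic cells lacking beta1 integrin are known not to colonise the fetal liver.

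Promoter sequences were read from RefSeq (build GRCm38.p6), which had an entry for 5 of the 8 genes, namely Itga2, Itga4, Itga5, Itgb1 and Itgb7. The table had no entry for Itga6, Itgal and Itgb2. The 2 entries shown lie on the same chromosome and belong to Itga5, which passed the test below with a lower mean in GFP+, and Itgb7, whose mean was higher in GFP+ without passing. Each entry is 300 bases long, written 5′ to 3′ in the direction of transcription, at chr15:103366742-103367041 on the minus strand for Itga5 and chr15:102231886-102232185 on the minus strand for Itgb7. Capitals mark the core of Ets factor motifs, GGAA, on either strand (TTCC when read on the other).
Itga5: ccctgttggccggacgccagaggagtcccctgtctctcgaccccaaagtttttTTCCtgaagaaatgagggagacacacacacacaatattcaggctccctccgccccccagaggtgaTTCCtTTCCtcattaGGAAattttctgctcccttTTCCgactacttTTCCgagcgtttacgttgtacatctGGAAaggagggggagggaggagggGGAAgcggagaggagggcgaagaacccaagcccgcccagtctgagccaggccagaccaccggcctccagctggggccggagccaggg
Itgb7: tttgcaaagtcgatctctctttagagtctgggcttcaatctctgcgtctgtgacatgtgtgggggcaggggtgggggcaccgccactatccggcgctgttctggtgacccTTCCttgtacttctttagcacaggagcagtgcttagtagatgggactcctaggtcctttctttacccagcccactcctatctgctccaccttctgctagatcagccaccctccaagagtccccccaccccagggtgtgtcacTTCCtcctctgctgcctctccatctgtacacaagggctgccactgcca
The Itga5 window held 8 matches, a number reached by 3.72% of 32851 promoter entries of the same length. The Itgb7 window held 2, a number reached by 84.6%. The entries not shown held 5 for Itgb1, 3 for Itga2 and 1 for Itga4. Itga4, whose mean was also lower in GFP+, thus had the fewest. At least 1 match is present in 96.0% of entries, and the median is 3. The words GGGCGG, the GC box, and TGTGGT, a Runx motif, were also searched on both strands, each counted on its own where words overlap. Itga5 had 2 GC boxes and Itgb7 had 0, against 35.7% of entries with at least 1, and neither window held the Runx word, present in 16.8% of entries. These counts describe letters in a window and no binding was measured.

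The alpha subunit of LFA-1 rose in GFP+ cells and the alpha subunit of the fibronectin receptor VLA-5 fell. Itga2, Itga4 and Itga6, whose products pair with Itgb1, had lower means in GFP+ without passing the test, Itgb1 itself had nearly equal means, and Itgb2 and Itgb7 had higher means without passing. At the authors' adjusted p under 0.05, 1 member rose and 1 fell, so 2 of 8 passed, against 7.49% of all rows (4.86% higher and 2.64% lower in GFP+). The unadjusted p was under 0.05 for 6 of the 8, against 16.2% of all rows. The median log2 difference of the members was -0.15, beside 0.0095 for all rows. With 8 genes, chosen with earlier results of these data known, these shares are a description only. Values are the authors' group means in normalized counts, and a log2 difference is that of the GFP+ mean over the Tomato+ mean. The table used here has no value for a single library, so no SD is given and overlap between the fractions' libraries could not be examined. In sorted bulk RNA, fewer cells of a type and less RNA per cell cannot be told apart.

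**Figure D1:**
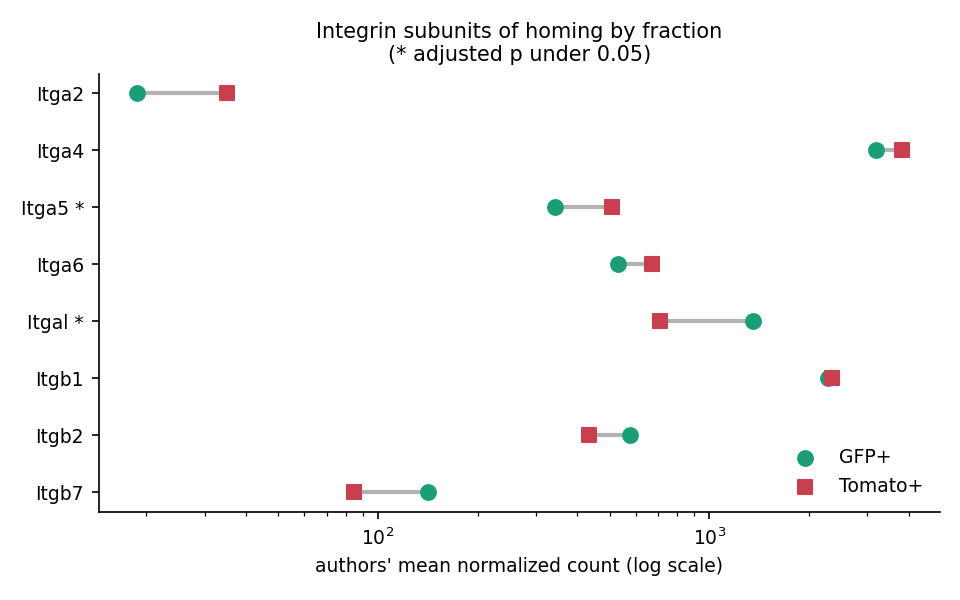
Authors' mean normalized count (log axis) of the 8 integrin subunits in GFP+ (green circles) and Tomato+ (red squares) cells, with a grey line joining the fractions of a gene. Itgal, at 1351 and 712, and Itga5, at 343 and 509, carry an asterisk for an adjusted p under 0.05, and the Itgb1 points nearly coincide.

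Itgal encodes the alphaL chain (CD11a) of LFA-1, found on nearly all leukocytes. Its mean was 1351 normalized counts in GFP+ and 712 in Tomato+ cells. The authors' deposited table put it 1.90-fold higher in GFP+ cells, with a log2 difference of 0.93 and an adjusted p of 6.76e-07. That difference exceeded those of 95.0% of all rows. Among the 1870 rows whose mean lay within 1.5-fold of that of Itgal, 6.26% passed, with a median absolute log2 of 0.57 among those that did. Itgal kept its call under the stricter adjusted p of 0.01.

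Itgb2 encodes the beta chain (CD18) that Itgal shares with the myeloid chains Itgam, Itgax and Itgad. Its means were 577 in GFP+ and 434 in Tomato+. Itgb2 did not pass, with a log2 difference of 0.41 and a p of 0.0494 before and 0.306 after adjustment in the authors' deposited table.

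Itga5 encodes the alpha5 chain (CD49e), which binds the RGD sequence of fibronectin. Its means were 343 in GFP+ and 509 in Tomato+. By the authors' deposited table it fell 1.48-fold, with a log2 difference of -0.57 and an adjusted p of 0.022. The call was lost at an adjusted p under 0.01. Of 3038 rows with a mean within 1.5-fold of Itga5, 6.06% passed, and the median absolute log2 over all of them was 0.15.

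Itga4 encodes the alpha4 chain (CD49d), known to be needed for the normal homing of progenitors to bone marrow. It had the highest mean of the members, 3181 in GFP+ and 3804 in Tomato+, above 98.1% of all rows. In the authors' deposited table its log2 difference was -0.26, with p = 0.0107 before and 0.107 after adjustment. Rows at this level passed more often than others, with 20.2% of 326 rows of like mean called and a median absolute log2 of 0.43 among them. Itga4 lay below that size and was not called. By the GRCm38 annotation, 8.04% of its exon bases overlap exons of Cerkl on the other strand. The means of Cerkl were 61.3 and 76.9, far below those of Itga4, by the authors' deposited table.

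Itga6 encodes the alpha6 laminin receptor chain (CD49f), used in sorting human stem cells. Its means were 529 in GFP+ and 672 in Tomato+, and the authors' deposited table gave a log2 difference of -0.34 with an adjusted p of 0.127. Itga2 encodes the alpha2 collagen receptor chain (CD49b), found on platelets and natural killer cells. It was the rarest member, with means of 18.7 in GFP+ and 35.1 in Tomato+, above only 18.1% of all rows. Its log2 difference of -0.91 in the authors' deposited table is close in size to that of Itgal, but its adjusted p was 0.344. Among 1276 rows of like mean the median absolute log2 was 0.51, and among the 5.96% that passed it was 2.25.

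Itgb1 encodes the beta1 chain (CD29) shared by all 4 of these alpha subunits. It averaged 2284 normalized counts in GFP+ and 2347 in Tomato+ cells, and the authors' deposited table gave a log2 difference of -0.039 with an adjusted p of 0.952. At its level 14.1% of 625 rows passed. Itgb7 encodes the beta7 chain, known from gut-homing lymphocytes and their progenitors. Its GFP+ mean of 142 was 1.67-fold the Tomato+ mean of 84.9, and its p in the authors' deposited table was 0.00774 before and 0.0855 after adjustment. It passed only when the threshold was loosened to an adjusted p under 0.1, which 9.63% of all rows met.

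**Figure D2:**
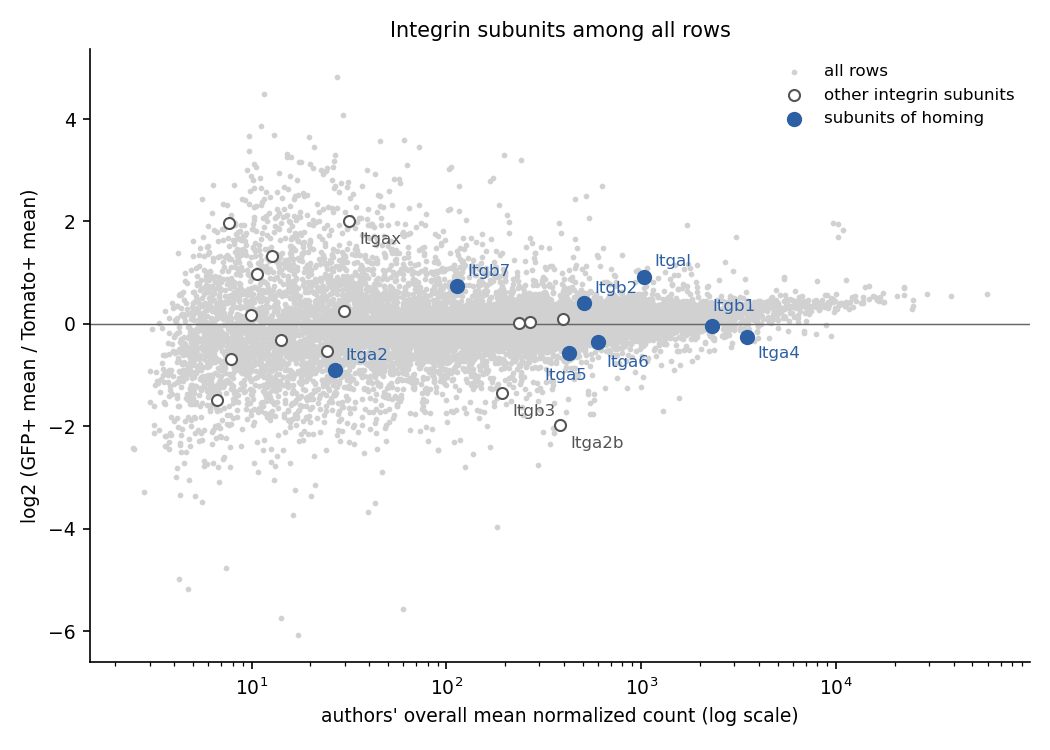
Log2 of the GFP+ mean over the Tomato+ mean against the overall mean normalized count (log axis), for all 14268 rows (grey), the 8 subunits of homing (blue) and 15 other integrin subunits (open circles). Itgal and Itga5 lie at the edge of the cloud at their level, with log2 values of 0.93 and -0.57, and Itga2b and Itgb3 lie below it at -1.97 and -1.35.

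Pairing the subunits by known heterodimer set each alpha difference beside that of its beta chain. In all 4 pairs with Itgb1 the alpha difference was below the beta difference. The gap was -0.22 on the log2 scale for Itga4, -0.30 for Itga6, -0.53 for Itga5 and -0.87 for Itga2. All 4 gaps use the same Itgb1 value, and of these alpha subunits only Itga5 passed. Of the alpha partners of Itgb1 that are not members, Itga8, Itga9 and Itgav had differences above that of Itgb1. Those of Itga1, Itga3 and Itga10 were below it. For LFA-1 both chains had positive differences, and that of Itgal exceeded that of Itgb2 by 0.52. For LPAM-1 the chains went opposite ways, Itga4 at -0.26 and Itgb7 at 0.74, a gap of -0.99, so the mean of Itga4 relative to Itgb7 was 1.99-fold lower in GFP+. These gaps have no test, since group means give no spread for a difference of differences. A pseudocount of 10 moved the Itga2 gap to -0.61 and the LPAM-1 gap to -0.93, with no change of sign in any pair.

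**Figure D3:**
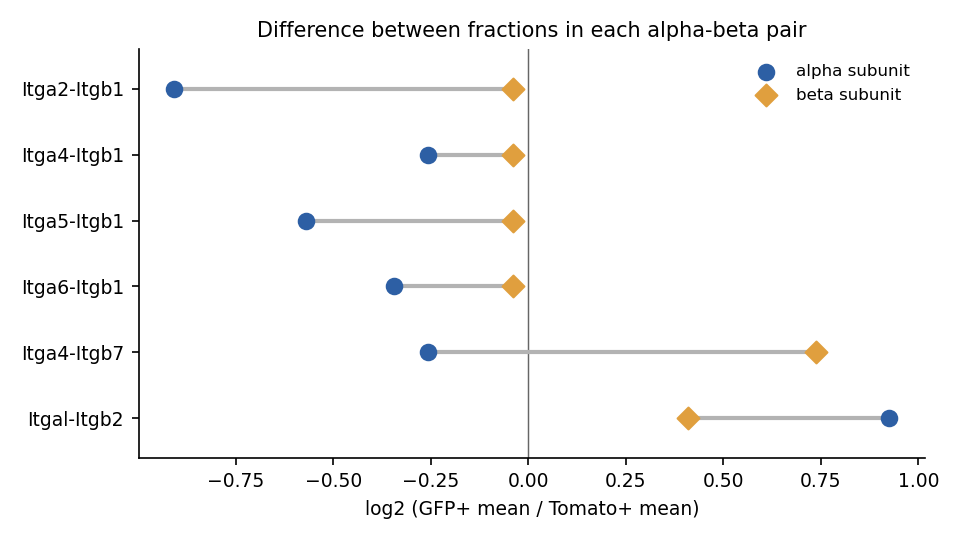
Log2 of the GFP+ mean over the Tomato+ mean for the alpha subunit (blue circle) and the beta subunit (orange diamond) of 6 known integrin pairs, joined by a grey line. The 4 pairs with Itgb1 have the alpha point left of the beta point at -0.039, the Itga4-Itgb7 pair spans 0, and both points of Itgal-Itgb2 are right of 0.

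To compare levels between genes, each mean was divided by the gene's exon length in kilobases, taken from the GENCODE M21 annotation of GRCm38. These lengths may differ from those of the mm9 gene clusters behind the counts. In GFP+ cells the order of levels per kilobase was Itgb1 at 599, Itga4 at 326, Itgal at 212, Itgb2 at 194, Itga6 at 121, Itga5 at 78.3, Itgb7 at 52.7 and Itga2 at 2.63. In Tomato+ cells it was Itgb1 at 615, Itga4 at 389, Itga6 at 154, Itgb2 at 146, Itga5 at 116, Itgal at 112, Itgb7 at 31.7 and Itga2 at 4.94 per kilobase. Itgal thus took place 3 of 8 in GFP+ and place 6 in Tomato+, while Itgb1, Itga4, Itgb2, Itgb7 and Itga2 held the same places in both. The order has no test, and close neighbours such as Itga5 and Itgal in Tomato+ cannot be ranked from means alone. The plan named coding length for these levels, and exon length was not in it. Divided by coding length, Itga4 stood above Itgb1 in both fractions, at 1027 and 954 per kilobase in GFP+ and 1229 and 980 in Tomato+. By that length Itgal took place 3 in GFP+ and place 5 in Tomato+, where its 188 per kilobase stood above the 161 of Itga5.

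As shares of the level per exon kilobase, Itgal made up 28.6% of the 5 alpha members in GFP+ and 14.4% in Tomato+. Itga4 made up 44.0% and 50.2%, Itga6 16.4% and 19.9%, Itga5 10.6% and 15.0%, and Itga2 0.356% and 0.637%. By coding length these shares moved, to 9.47% and 11.1% for Itga6, 6.56% and 9.02% for Itga5, 62.1% and 68.8% for Itga4 and 21.6% and 10.5% for Itgal, each with the same direction between fractions. Among the 3 beta members, Itgb1 held 70.8% in GFP+ and 77.6% in Tomato+, Itgb2 23.0% and 18.4%, and Itgb7 6.24% and 3.99%. Within the 10 measured alpha partners of Itgb1 the make-up was closer between fractions. Itga4 held 51.9% and 51.2%, Itga6 19.4% and 20.3% and Itga5 12.5% and 15.3%, although the pool's summed level per kilobase was 627 in GFP+ and 761 in Tomato+. By coding length Itga6 held 10.3% and 10.99% and Itga5 7.15% and 8.90%, and the small Itga4 difference changed sign, at 67.6% and 67.8%. Within the 4 alpha partners of Itgb2, Itgal held 75.2% in GFP+ and 66.0% in Tomato+ and Itgam 19.7% and 31.9%, and the pool summed to 282 and 169 per kilobase.

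**Figure D4:**
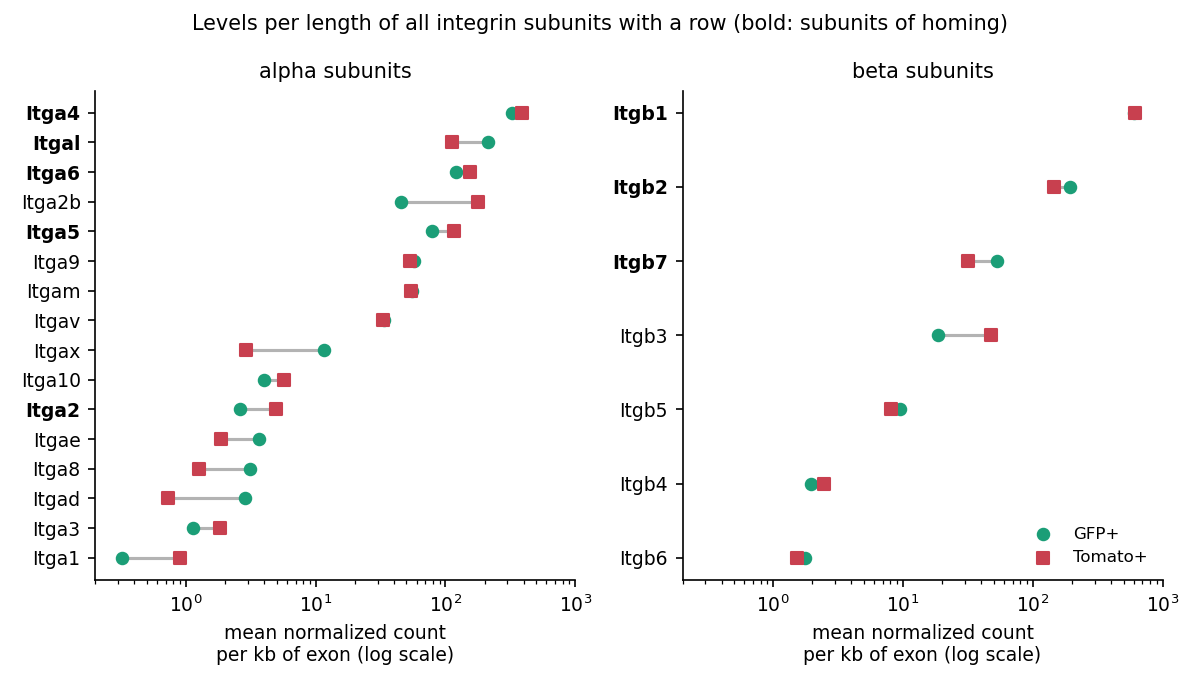
Mean normalized count per kilobase of exon (log axis) of 16 alpha and 7 beta integrin subunits in GFP+ (green circles) and Tomato+ (red squares) cells, with subunits of homing in bold. Itga4 and Itgb1 lead their panels in both fractions, Itga2b is at 45.2 in GFP+ and 177 in Tomato+, and Itga2 is at 2.63 and 4.94.

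Of the 26 integrin subunit genes listed for mouse, 23 had a row, the 8 members and 15 others. Itga7, Itga11 and Itgb8 had no row in the table used here. Of the 15 others 0 rose and 2 fell, or 13.3% called against 7.49% of all rows, and with so few genes this is a description. Their median log2 was 0.038, or -0.12 with both fractions scaled to the same total, and 4 had an unadjusted p under 0.05. Both that fell form the platelet fibrinogen receptor. Itga2b, which encodes CD41, averaged 155 in GFP+ against 609 in Tomato+ cells, and Itgb3, which encodes CD61, averaged 108 against 276. The authors' deposited table gave them log2 differences of -1.97 and -1.35, with adjusted p-values of 5.06e-27 and 4.46e-11. The myeloid partners of Itgb2 differed among themselves. Itgam (CD11b) averaged 273 in GFP+ and 266 in Tomato+, whereas Itgax (CD11c) averaged 50.6 and 12.5 and had an adjusted p of 0.0678 in the authors' deposited table. Itgad averaged only 12.2 and 3.10, with an adjusted p of 0.254 by the authors' deposited table.

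Alpha chains that share Itgb1 but are not members had close means where they were well measured. Itga9, whose product binds tenascin and VCAM-1, averaged 408 in GFP+ and 380 in Tomato+ cells, and Itgav, a chain of vitronectin receptors, had 237 and 233. The authors' deposited table gives them log2 differences of 0.10 and 0.026, neither past the test. Itgae, the other partner of Itgb7, was near the floor of the table, with means of 14.2 and 7.17. The remaining 7, Itga1, Itga3, Itga8, Itga10, Itgb4, Itgb5 and Itgb6, had overall means from 6.67 to 29.7 and did not pass.

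Of 23 listed genes for integrin ligands 19 had a row, of which 6 fell and 1 rose in GFP+ cells, with a median log2 of -0.74. The 7 that passed are 36.8% of the list, against 7.49% of all rows, and the 6 that fell are 31.6%, against 2.64%. The list was chosen with earlier results of these data known, so these shares are a description only. A log2 difference above 0 was seen for 3 of them. The rise was in Vcam1, a ligand of VLA-4, at 120 in GFP+ and 24.0 in Tomato+ cells, which is 5.02-fold higher with an adjusted p of 9.43e-07 by the authors' deposited table. Vcam1 is also made by fetal liver macrophages and stands on that marker list. Fn1, the fibronectin bound by VLA-4 and VLA-5, averaged 351 in Tomato+ and only 215 in GFP+ cells, a fall of 1.63-fold with an adjusted p of 0.0225 by the authors' deposited table. It thus fell in the same fraction as Itga5. By the authors' deposited table the laminin chains Lama5 and Lamb2 were lower by 1.94-fold and 2.73-fold, and the genes of the collagen IV chains alpha1 and alpha2 by 3.40-fold and 3.38-fold (Col4a1 and Col4a2). F11r, whose product JAM-A binds LFA-1, fell 2.16-fold by the authors' deposited table. The other LFA-1 ligands measured did not pass, and the authors' deposited table gave log2 differences of 0.036 for Icam1, -0.51 for Icam2 and 0.11 for Icam4. Of the 19 genes 12 had an overall mean of at least 50, and Madcam1, Icam5, Lama1 and Lama2 had no row in the table used here.

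Of the genes for activators, inhibitors, the adhesion complex, membrane partners and the folding and recycling of integrins, 5 of 63 measured passed, or 7.94%, near the 7.49% of all rows. Of 14 measured activators of integrins 0 passed by the authors' deposited p-values, and 3 had an unadjusted p under 0.05. Their median log2 was 0.10, or -0.055 when both fractions were scaled to the same total. Tln1, the talin that binds beta tails, had means of 5375 and 5876, and Fermt3, the blood cell kindlin, 2113 in GFP+ and 2609 in Tomato+, where the authors' deposited table gave an adjusted p of 0.193. Rap1a, a GTPase upstream of talin, averaged 944 and 687, with an adjusted p of 0.0849 by the authors' deposited table. Of 8 measured inhibitors only Shank3, a scaffold protein that binds Rap1, passed. It averaged 496 in GFP+ and 1185 in Tomato+ cells, a fall of 2.39-fold by the authors' deposited table. The median log2 of the inhibitors was -0.088.

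Among 22 measured genes of the adhesion complex and its signalling, 1 rose and 0 fell, with a median log2 of -0.024. The rise was Parvg, the parvin of blood cells that joins integrin-linked kinase to actin, at 2347 in GFP+ and 1520 in Tomato+. That was a 1.54-fold difference with an adjusted p of 0.00044 by the authors' deposited table. Of 10 membrane partners 1 rose and 2 fell. By the authors' deposited table Cd37, a tetraspanin of leukocytes, rose 1.55-fold, and the tetraspanin Cd63 fell 1.67-fold and the tetraspanin Cd9 1.48-fold. The partners' median log2 was 0.15, or -0.0092 with equal totals. Of 9 genes of integrin folding and recycling 0 passed by the authors' deposited p-values, and 1 had an unadjusted p under 0.05, Arf6, a GTPase of membrane recycling at 2030 and 1695. Hsp90b1, the chaperone that folds many integrin subunits, averaged 4519 and 3580, with an adjusted p of 0.379 by the authors' deposited table. Their median was 0.14, or -0.016 with equal totals.

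**Figure D5:**
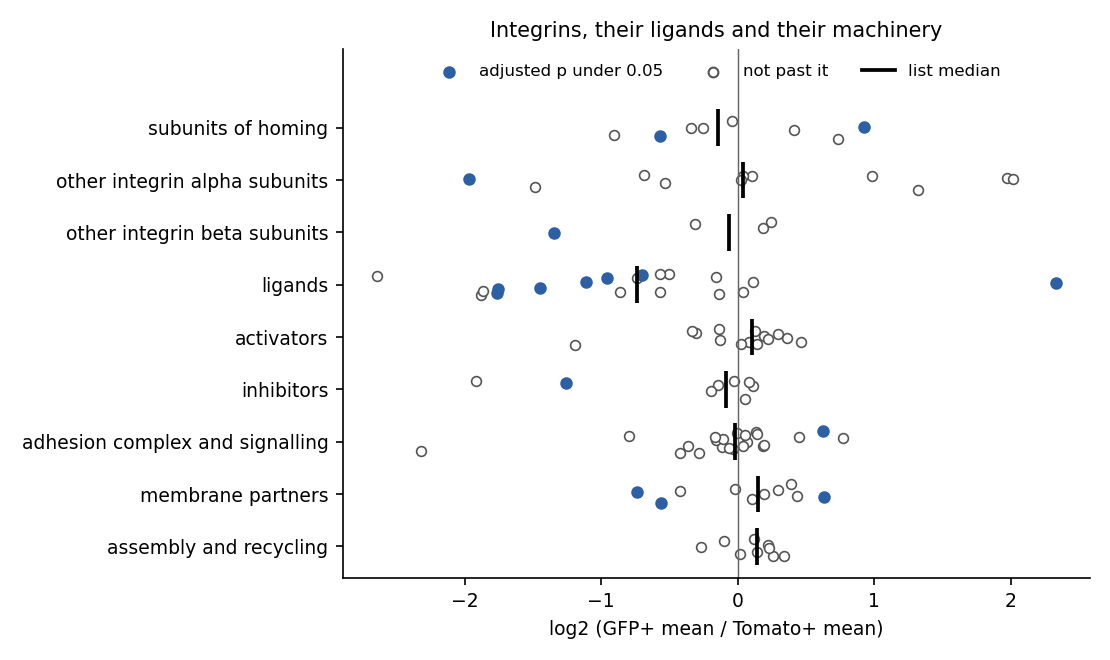
Log2 of the GFP+ mean over the Tomato+ mean for each measured gene of the integrin lists, filled where the authors' adjusted p was under 0.05 and open where not, with a black bar at each list's median. The ligands' median is -0.74 with Vcam1 alone at the far right, and the other medians lie between -0.15 and 0.15.

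Genes listed as markers of other cell types differed between the fractions. Whether their RNA came from such cells or from the stem and progenitor cells sorted for was not tested. Integrins that the other cell types also carry are named for some types only, and not for granulocyte, erythroid or hepatoblast markers. The marker counts stand beside 4.86% of all rows higher and 2.64% lower in GFP+. Macrophages carry Itgb2 integrins. Of the myeloid partners of Itgb2, Itgam had close means, 273 in GFP+ and 266 in Tomato+. Itgax and Itgad had higher means in GFP+ without passing. Of 11 measured macrophage markers 9 rose and 0 fell, and their summed means were 1507 in GFP+ and 478 in Tomato+. Cd5l had means of 294 and 42.4, Marco 189 and 22.7 and Csf1r 353 and 150. Of 9 B lymphoid markers 5 rose and 0 fell, and 0 of those 5 had an overall mean, taken over both fractions, of at least 50, with sums of 629 and 243. Cd79a had means of 69.9 and 8.72, Cd79b 269 and 207, Ebf1 43.4 and 5.22 and Pou2af1 55.4 and 3.28. The T and natural killer list had rows for 2 of 10 genes, of which Lck rose, with means of 157 and 78.7, and Klrb1c had 12.6 and 20.4. The defining genes Cd3e, Cd3d, Cd3g, Zap70, Prf1 and Ncr1 had no row in the table used here. The part of these cells in the higher Itgal, Itgb2 and Itgb7 means was not tested.

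Megakaryocytes and platelets carry Itga2b, Itgb3 and Itga2. Of 8 measured markers of these cells 5 fell and 0 rose, with summed means of 339 in GFP+ and 1127 in Tomato+. Vwf had means of 75.7 and 513, and Pf4 had 96.9 and 265. Endothelial cells carry Itga5 and Itga6. Of 10 endothelial markers 6 fell and 1 rose, with sums of 4246 and 5785. Esam had means of 118 and 511, Tie1 590 and 1389, Eng 989 and 1367 and Egfl7 1736 and 1337. Their part in the lower alpha subunit means was not tested. Mast cell progenitors are known for Itgb7. Of 4 measured mast cell and basophil markers 0 passed by the authors' deposited p-values, with 2 at an unadjusted p under 0.05, and Hdc and Cpa3 had lower means in GFP+, at 36.4 and 76.7, and 55.1 and 82.8. Of 10 granulocyte markers 3 rose and 2 fell, among them Ngp (79.9 and 26.2) and Elane (27.9 and 152), while Mpo (5679 and 5275) and Prtn3 (786 and 925) did not pass.

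Erythroid and hepatoblast markers were mostly higher in GFP+, with 7 of 8 and 9 of 10 rising and 0 falling. Hba-a2 averaged 16122 in GFP+ and 4190 in Tomato+ cells, Hbb-b1 15589 and 4780, Alb 774 and 142, Afp 885 and 157, and Dlk1, which did not pass, 811 and 993. Of the 2 rows of Hba-a2, the one with the higher mean is given. Of the 10 listed genes of stem and progenitor cells, all of which had a row, 2 rose and 4 fell. Cd34 had means of 5974 and 3793, Flt3 3753 and 1617, Kit 4087 and 4950 and Mecom 279 and 809. Mecom has 2 rows, and the values are those of the row with the higher mean. With the row of lowest mean per symbol, 5 genes of this list passed instead of 6. Of the genes for proteins named in the sort, besides Kit, Ly6a (Sca1) had 59.5 and 70.1, and Slamf1 (CD150) only 27.9 and 119. Slamf1 was thus 4.24-fold lower in GFP+ cells, with an adjusted p of 4.95e-08 by the authors' deposited table. No row of the table has a group mean of 0. Scaling both fractions to the same sum of means lowers every log2 value by 0.16, to 0.77 for Itgal, -0.73 for Itga5, 0.58 for Itgb7 and -0.20 for Itgb1.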

How the data were processed

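RNA from sorted fetal liver cells was measured in 8 libraries, 4 of each fraction. Per the submitters' processing notes, genome build mm9 was used with DESeq, bedtools, TopHat, TopHat2 2.0.11 and Bowtie2 2.2.1, without stated roles or settings. The authors deposited, per the file headers, the mean of normalized counts in each group (a signal averaged over libraries), the ratio of the means as a fold change, its log2, and p-values with and without adjustment. A repeated header line was dropped, and the sign of log2 was turned to GFP+ over Tomato+. The deposited adjusted p-value matched a Benjamini-Hochberg recomputation over the 14268 rows within 5.3e-08. Each symbol was read from its row with the highest mean. Without values per library, no test of differences was run here. Depth per library is unknown. The planned count test per library was replaced by a reading of the authors' comparison.

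The 8 members and all lists were chosen with earlier results of these data known. Named were all integrin subunits with a row, the members of each integrin list past the threshold (or the 2 with the smallest p) and, per marker list, the 2 with the highest mean and the 2 with the smallest p. Tln1, Ly6a, Slamf1, the ICAM genes and Cerkl fall outside that rule and were chosen after their values were seen. Python 3.11.15, numpy and pandas 2.3.3 were used, and the adjustment step was tested on simulated data. A marker gene of the plan is not reported here. The sources used here do not say whether counting used strand or how shared reads were treated.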

Additional observations from a re-analysis of the deposited data

How the results depend on the processing

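No paired analysis was possible because only group means, without values of single libraries, could be read. The replicate block, other size factors, DESeq2 and leaving out single libraries were not run for the same reason. Of the 8 members 2 passed at an adjusted p under 0.05. An adjusted p under 0.01 and a Bonferroni adjustment left 1 (Itgal), and asking for an absolute log2 of at least 1 left 0, each by a stricter criterion. An adjusted p under 0.1 gave 3, with Itgb7 added, and recomputing the adjustment over 1 row per symbol or over rows with a mean of at least 50 gave 2 (Itga5 and Itgal). No member's log2 and no alpha-beta gap changed sign with a pseudocount of 10, and no member's log2 with equal totals or centring on the median. Equal totals, which lower all log2 values by 0.16, turned the list medians of other alpha subunits to -0.12, activators to -0.055, membrane partners to -0.0092, folding and recycling genes to -0.016 and T and natural killer markers to -0.0030. Applying this scaling or the centring to list medians was chosen after seeing the data. Levels per coding length were planned, whereas levels per exon length and the shares by either length were not. Coding length lowered the Itga5 and Itga6 shares of the alpha members, as given above, and with it the Itga4 share among alpha partners of Itgb1 turned from 0.71 to -0.20 percentage points (GFP+ minus Tomato+). Keeping only genes whose overall mean reached 50, calls were 0 for B lymphoid, 3 for megakaryocyte and platelet and 5 for hepatoblast markers, since fewer genes remain.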

Other observations

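By RefSeq order on GRCm38.p6, the 8 genes have 16 neighbouring protein-coding genes, of which 13 had a row. Of these 0 passed in the authors' deposited table, a count that differs little from the 7.49% of all rows in so few genes, with 1 at an unadjusted p under 0.05, and their log2 differences ran from -1.49 to 0.22. Sephs2 and Zfp768, on either side of Itgal, had log2 differences of 0.22 and -0.22 in the authors' deposited table. Zfp385a, beside Itga5, averaged 399 in GFP+ and 504 in Tomato+, with an adjusted p of 0.629 by the authors' deposited table. Pttg1ip, beside Itgb2, averaged 493 and 646, the opposite direction to Itgb2, with an adjusted p of 0.0531 by the authors' deposited table. Itga1, beside Itga2, averaged 3.51 and 9.83. These genes were chosen by position, after the members' values were seen.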
